A study of Mus musculus with 2 samples.

Results

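The cells described here are the progenitors that the authors' deposited cell annotation assigns to the class Gstm1/Ly86, 1 of 18 classes of mouse bone marrow cells. The class was taken as annotated, with no further selection, and held 443 of 14795 cells (2.99%): 306 in the Control library and 137 in the library labelled Runx1 KO (the labelled knockout from here on). Per the protocol, marrow from the hind limbs of C57BL/6 mice had been sorted as Lineage-, c-Kit+ and Sca1-, a gate for committed myeloid, erythroid and megakaryocyte progenitors, and each cell's transcripts were counted from their 3′ ends with droplet capture as unique molecular identifiers (UMIs). The samples' short description speaks of dissociated embryos instead, and the protocol and the source label, which both give bone marrow, were followed. The Control library pooled marrow of 2 mice, 1 Runx1f/f and 1 Runx1f/-, so 1 of the Control mice already lacked a Runx1 allele in the germline. For the labelled knockout, the sources used here do not state how many mice were pooled, their age or which recombinase removed Runx1. There was 1 library per genotype, so genotype and library cannot be told apart, no test between genotypes was possible, and every interval below is a 95% interval that covers counting error only. The comparison asks how loss of Runx1, a transcription factor of blood progenitors, changes cells on the way to neutrophils, which the series title places in the question of cytokine production after Toll-like receptor (TLR) signals.

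Granulocyte-monocyte progenitors are the stage at which myeloid cells turn towards neutrophils or monocytes. Neutrophil fate goes with the transcription factors C/EBPε and Gfi1 and with the proteases and peroxidase of the primary granules, while monocyte and dendritic cell fate depends on Irf8. A progenitor that has not yet turned can hold transcripts of both programmes at low level. Of the 2 genes in the class name, Gstm1 encodes a glutathione transferase that conjugates glutathione to reactive compounds, and Ly86 encodes MD-1, the partner of the TLR-like receptor CD180.

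The class stood between 2 larger annotated classes, Ly86 on the monocyte side (1326 and 553 cells) and Gstm1/CD63 on the neutrophil side (621 and 657 cells). Levels are given as counts per 1000000 UMIs of the summed cells (CPM), Control first and the labelled knockout second. Mpo, which encodes the peroxidase of primary granules, had 5262 and 4932 CPM in the Gstm1/Ly86 class. Elane (ENSMUSG00000020125, GRCm38 chromosome 10, 79886247 to 79888215, plus strand), the gene of neutrophil elastase, had 3126 and 2161 CPM. Irf8 (ENSMUSG00000041515, chromosome 8, 120736358 to 120756694, plus strand) had 193 and 146 CPM. Transcripts of both fates were thus present in the summed cells, and Klf4, a monocyte factor that acts after Irf8, was near 0 at 0.639 and 1.22 CPM.

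The 2 name genes did not set the class apart to the same degree in both libraries. Ly86 (ENSMUSG00000021423, chromosome 13, 37345208 to 37419036, plus strand) had 101 and 64.6 CPM in the class, 212 and 201 in the Ly86 class, and 10.2 and 1.78 in the Gstm1/CD63 class. Gstm1 (ENSMUSG00000058135, chromosome 3, 108012255 to 108017973, minus strand) had 150 and 105 CPM in the class and 383 and 231 in the Gstm1/CD63 class. In the Ly86 class Gstm1 had 94.9 and 131 CPM, so the Gstm1/Ly86 class was 1.58 times the Ly86 class in Control (interval 1.48 to 1.69) but 0.802 times in the labelled knockout (0.713 to 0.899). Among the classes with at least 50 cells, the class had rank 3 of 12 for Gstm1 in Control and rank 4 of 10 in the labelled knockout. Gstm1 has close paralogs whose 3′ ends the counting may have split, and its level is uncertain to that extent.

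Depth was ample for abundant genes and thinner in the labelled knockout. The class held 7824679 UMIs in Control and 3281226 in the labelled knockout, with a median of 27668 and 24267 UMIs and of 4905.5 and 4686 detected genes per cell. Median mitochondrial shares were 4.62% and 4.88%. Scrublet, which simulates doublets from pairs of cells, marked 10 cells (3.27%) of the class in Control and 12 (8.76%) in the labelled knockout, against 2.22% and 3.11% of all cells of the libraries. The marked cells carried 5.06% and 12.1% of the UMIs of the class, with a median of 42097 and 34131 UMIs per cell. The libraries shared 13 barcodes, and 1 of them belonged to a cell of the class. Named genes that crossed the 1.5-fold line used below when the marked cells were left out are given with both values, with and after the megakaryocyte genes.

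In the sorted marrow the class made up 4.43% of cells in Control (interval 3.96 to 4.94) and 1.74% in the labelled knockout (1.46 to 2.05), 2.55-fold less (2.08 to 3.14). The Ly86 class was smaller by 2.74-fold (2.48 to 3.03), at 19.2% and 7.01%. Gstm1/CD63 made up 8.99% and 8.33%, a ratio of 0.926 (0.829 to 1.04), and Fcnb, a class with more Elane and Mpo, was 1.55 times as large a share (1.28 to 1.87). Shares of a sort depend on all other classes, and the Pf4 class made up 3.21% and 22.6%. Without the Pf4 class the Gstm1/Ly86 share of the labelled knockout was 2.24%. Over the 5 classes Gstm1/Ly86, Gstm1/CD63, Ly86, Fcnb and Ltf alone, the class made up 12.3% and 7.26%.

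Among the genes kept for ranking, the class had none of its own against both neighbours in both libraries at the fold used here. A gene had to reach 30 CPM in the higher group and 100 UMIs in total to be called measured, and a difference of 1.5-fold, after adding 10 CPM to each side, to be called higher or lower. Against the Ly86 class, 40 of 4236 measured genes were higher (0.944%) and 59 lower (1.39%) in Control, and 51 of 4336 were higher (1.18%) and 84 lower (1.94%) in the labelled knockout. Against Gstm1/CD63, 74 of 4190 were higher (1.77%) and 70 lower (1.67%) in Control, and 53 of 4292 were higher (1.23%) and 51 lower (1.19%) in the labelled knockout. The ranking left out predicted, clone-named, mitochondrial and some sex-linked genes. Of 3845 ranked genes measured against both neighbours in both libraries, 0 were above both neighbours by that fold in both libraries and 0 below both. Against Fcnb, the class with the most Elane in either library, 6.18% of measured genes were higher and 4.51% lower in Control and 7.3% and 3.77% in the labelled knockout, and against CD34, the class named for a marker of early progenitors, 2.06% and 4.63% and then 2.7% and 6.32%. By these counts the class was nearer to Ly86 and Gstm1/CD63 than to Fcnb or CD34. They are a description, because the classes were made from the same cells.

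Most genes that separated the neighbours were intermediate in the class. In Control, 155 genes differed by at least 2-fold between Ly86 and Gstm1/CD63, and 151 of them (97.4%) had a level in the Gstm1/Ly86 class between those of the neighbours. On a scale from 0 at the Ly86 class to 1 at Gstm1/CD63, their median position was 0.417. In the labelled knockout 119 of 128 such genes (92.97%) lay between, with a median position of 0.552. The middle of these positions was therefore nearer to the Ly86 class in Control and about midway in the labelled knockout. The genes were chosen by their difference between the neighbours, and all the classes were made from the same cells. The shares between the neighbours are therefore a description and not a test of an intermediate state. The gene sets and the end points of the scale were also not the same in the libraries. That the position differs between the genotypes was not tested.

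**Figure D1:**
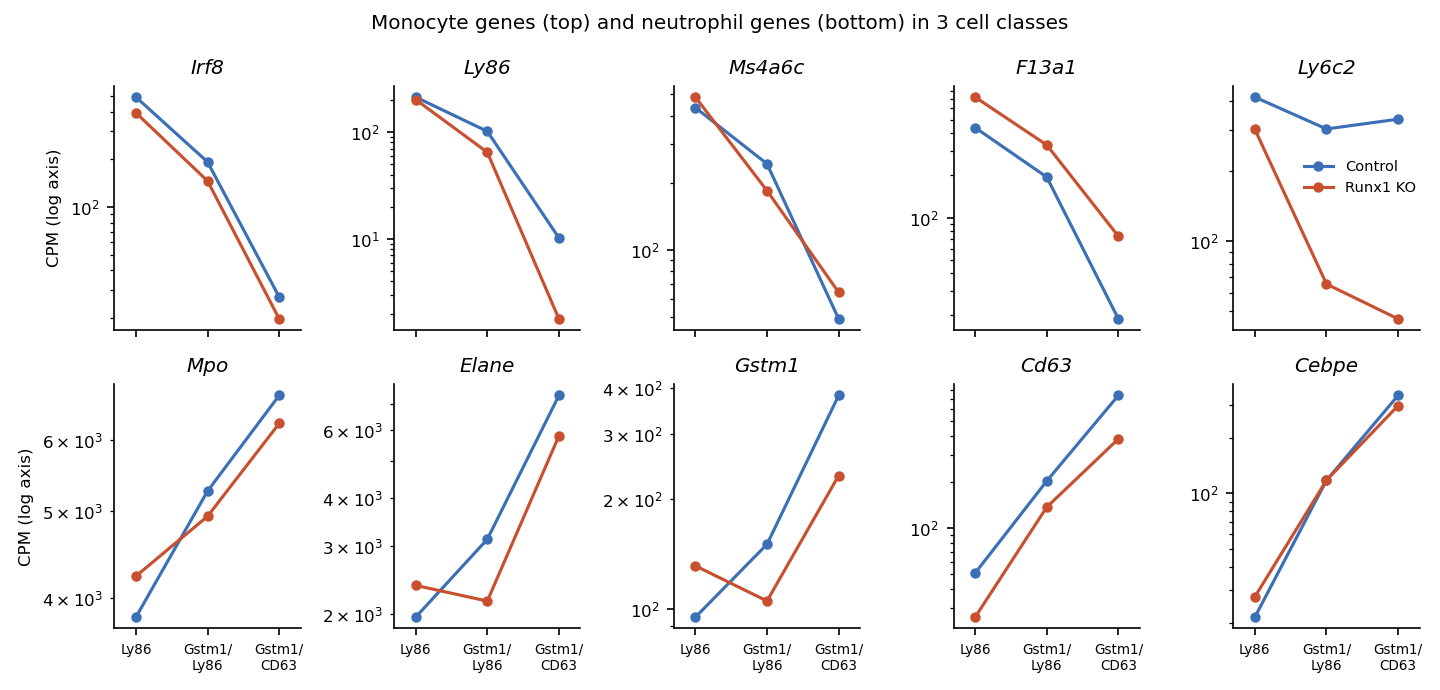
Levels in CPM on a log axis of 5 monocyte genes (top row) and 5 neutrophil genes (bottom row) in the Ly86, Gstm1/Ly86 and Gstm1/CD63 classes, with 1 point per library. The Gstm1/Ly86 class lies between its neighbours for most genes, with Irf8 at 193 and 146 CPM, while Ly6c2 is far lower in the labelled knockout in Gstm1/Ly86 and Gstm1/CD63, and Elane and Gstm1 in the labelled knockout are below the Ly86 class.

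On the neutrophil side, the genes furthest above the Ly86 class included regulators and granule proteins. Cebpe (ENSMUSG00000052435, chromosome 14, 54710360 to 54712174, minus strand), the gene of the C/EBPε factor needed for granule maturation, had 117 and 118 CPM in the class against 21.4 and 27.5 in the Ly86 class. Cd63, a membrane protein of granules and lysosomes, had 203 and 137 CPM against 50.6 and 26. Apoe, the lipid carrier apolipoprotein E, had 201 and 631 CPM against 57.8 and 257. Ikzf2, the zinc finger factor Helios, had 62.5 and 58.2 CPM against 20.3 and 16.6. Cebpe and Cd63 were in turn lower than in Gstm1/CD63, where they had 338 and 298 CPM and 737 and 383 CPM.

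The 8 genes furthest above the Ly86 class also included Vat1 and 3 markers of basophils, mast cells and eosinophils. Cpa3, a mast cell carboxypeptidase, had 157 and 237 CPM in the class against 11.8 and 32.5 in the Ly86 class. Its UMIs were spread over 125 of 306 and 68 of 137 cells. Mcpt8, a basophil protease, had 65.4 and 88.7 CPM against 13.7 and 18.5, but 5 cells held 62.3% of its UMIs in Control and 93.5% in the labelled knockout. Prg2, the eosinophil major basic protein, had 43.5 and 30.5 CPM, with 93.5% and 96.0% of its UMIs in 5 cells. Leaving out the 7 Control and 6 knockout cells with at least 10 UMIs of Mcpt8, Prg2 or Pf4, a step chosen after these values were seen, brought Mcpt8 to 23.9 and 7.51 CPM and Prg2 to 5.55 and 4.57. The level of Cpa3 was thus shared by many cells of the class, and most of the level of Mcpt8 and of Prg2 came from a few. Mcpt8 still had UMIs in 116 of 306 Control and 23 of 137 knockout cells, and Prg2 in 26 and 9.

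On the monocyte side, Irf8 was among the 8 genes lowest against the Ly86 class, at 0.391 times its level there in Control (0.371 to 0.412) and 0.372 times in the labelled knockout (0.339 to 0.409). The other 7 of the 8 are named here. F13a1, which encodes a coagulation factor XIII subunit, had 194 and 329 CPM against 438 and 723, and the cathepsin gene Ctss had 16.4 and 14.3 against 47.2 and 90.2. Mpeg1, a pore-forming protein of macrophages, had 6.77 and 8.53 CPM against 34.4 and 50.3, and the immunoglobulin gene Ighm had 85.5 and 89.9 against 206 and 195. Pld4, Lsp1 and Tpm4 completed the 8 lowest.

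Irf8 and F13a1 were also among the 8 genes furthest above the Gstm1/CD63 class. Ly86 was 9.95 times as high (8.46 to 11.7) in Control and 36.3 times (24.9 to 54.4) in the labelled knockout, and Irf8 was 7.08 times (6.39 to 7.85) and 7.38 times (6.42 to 8.49) as high. Ccr2, the chemokine receptor that monocytes use to leave the marrow, had 57.9 and 41.4 CPM against 5.32 and 9.47. The membrane gene Ms4a6c had 243 and 184 CPM against 48.8 and 64.3, and F13a1 had 194 and 329 against 18.9 and 73.4. Emb, Milr1 and Ifi209 completed this group.

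The 8 genes lowest relative to Gstm1/CD63 included Cebpe, Cd63 and several genes of granule proteins. Elane had 3126 and 2161 CPM against 7389 and 5801. Prss57, another serine protease of neutrophil granules, had 88.4 and 40.2 against 234 and 124, and Pglyrp1, a bactericidal peptidoglycan recognition protein, had 25.2 and 72.5 against 160 and 190. Ms4a3, a membrane gene used to trace granulocyte-monocyte progenitors, had 462 and 528 CPM against 1268 and 1281. Nkg7 and Rgcc were also in this group.

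The genes furthest above both neighbours missed the 1.5-fold call in at least 1 of the 4 comparisons. Adgrg1, an adhesion receptor of early progenitors, had 62.9 and 58.2 CPM against 34.1 and 21.9 in the Ly86 class and 38.2 and 39.9 in Gstm1/CD63. Muc13, a membrane mucin, had 82.7 and 132 CPM against 43 and 74.6 and against 54.1 and 94.3. Lmo4, a LIM domain adaptor, had 133 and 106 CPM against 88.5 and 80.9 and against 96.9 and 80.3. Mcpt8, Ifitm1 and Ctla2a were the other 3, of which Mcpt8 came mostly from a few cells.

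Single cells were described by the share of the neutrophil programme (16 genes) in the UMIs of that programme and of the monocyte programme (18 genes) together. The median over cells of the class was 92.9% in Control and 93.2% in the labelled knockout, with quartiles of 88.4% and 95.6% and of 87.3% and 95.9%. The Ly86 class had medians of 79.0% and 83.1%, and Gstm1/CD63 had 97.4% and 97.6%. In the class, 124 cells (40.5%) in Control and 52 (38.0%) in the labelled knockout were above the 95th percentile of the Ly86 class. Below the 5th percentile of Gstm1/CD63 lay 184 (60.1%) and 70 (51.1%) cells. By this share, cells of the class thus overlapped both neighbours. The 2 cutoffs nearly met in Control (93.9% and 94.1%) and crossed in the labelled knockout (94.3% and 93.5%). Only 2 Control cells and 0 knockout cells of the class lay between them. With so little room between the cutoffs, these counts cannot show whether single cells were intermediate. Both programmes include genes that helped to define the classes. Per 10000 UMIs of a cell, the median of the neutrophil programme in Control was 176 in the class and 106 in the Ly86 class. In the labelled knockout it was 154 and 156. The monocyte programme had 14.1 and 26.5 in Control and 11.1 and 30.4 in the labelled knockout. This summed level of the neutrophil programme was thus above the Ly86 class in Control only. Gene by gene, the median log2 ratio to the Ly86 class over its 15 measured genes was 0.61 in Control. In the labelled knockout that median was 0.22, still above 0.

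**Figure D2:**
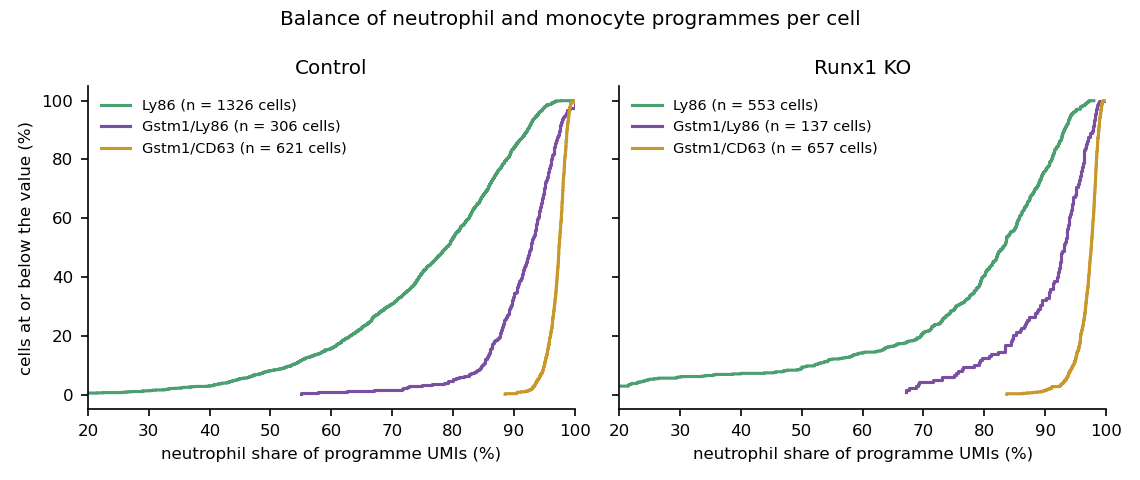
Cumulative share of cells (y axis, percent) by the neutrophil share of programme UMIs per cell (x axis, percent) for the Ly86, Gstm1/Ly86 and Gstm1/CD63 classes, Control on the left and the labelled knockout on the right; values under 20% are not drawn. The curve of the Gstm1/Ly86 class lies between the others, with medians of 92.9% and 93.2%.

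Gstm1 and Ly86 were often found in the same cell. At full depth the share with both was above the product of their separate shares in Control and below it in the labelled knockout. The intervals leave out the error of the product, so independence of the 2 genes was not tested. In Control, 152 of 306 cells (49.7%, exact interval 43.9 to 55.4) had UMIs of both, where the product of the separate shares was 44.9%. In the labelled knockout 33 of 137 cells had both (24.1%, 17.2 to 32.1), where the product was 27.2%. An equal depth of 5000 UMIs per cell left out 49 and 11 shallower cells. The expected share with both was then 13.8% (9.83 to 18.6) in Control, with a product of 15.6%. In the labelled knockout it was 5.45% (2.19 to 10.97), with a product of 6.64%. The Ly86 class had 16.7% (14.6 to 18.9) and 20.8% (17.5 to 24.5) at that depth, so cells with both transcripts were not particular to the class that carries both names. In the erythroid Car1 class, which should lack Ly86 and shows the level that free RNA can give, the shares were 0.0794% and 0.0109% at 5000 UMIs, and 1.27% and 0.133% without thinning at median depths of 15393.5 and 14621 UMIs.

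Elane and Irf8, 1 gene of each fate, were found together in 47.4% (41.1 to 53.7) of Control cells and 30.6% (22.7 to 39.4) of knockout cells of the class at 5000 UMIs, against 0.651% and 0.235% of Car1 cells. The Ly86 class had more such cells at that depth, 54.8% (51.9 to 57.6) and 63.3% (59.1 to 67.4), and Gstm1/CD63 had fewer, 10.5% and 8.26%. Without thinning the shares in the Gstm1/Ly86 class were 71.2% and 61.3%. Cebpe and Irf8 were found together at that depth in 9.52% (6.23 to 13.8) of Control cells, where the product of the separate shares was 15.8%, and in 6.28% (2.74 to 12.0) of knockout cells, where it was 13.3%. At full depth the products lay within the intervals, with both genes in 37.3% (31.8 to 42.9) of Control cells against a product of 39.4% and in 30.7% (23.1 to 39.1) of knockout cells against 38.0%. The share with both genes was thus below the product at either depth, and the product lay outside the interval only after thinning. These intervals also leave out the error of the product, so independence of Cebpe and Irf8 was not tested.

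Between the libraries, few genes of the class differed. Of 4301 measured genes, 70 (1.63%) were at least 1.5-fold higher and 27 (0.628%) at least 1.5-fold lower in the labelled knockout, and the median log2 ratio was 0.02. The shares were 2.19% and 0.817% in the Ly86 class and 1.38% and 0.7% in Gstm1/CD63. Runx1 itself (ENSMUSG00000022952, chromosome 16, 92601466 to 92826149, minus strand) was higher in the labelled knockout, with 151 and 352 CPM (ratio 2.33, 2.15 to 2.53). Reads from the 3′ end do not check a deletion elsewhere in the gene, so the level neither shows nor refutes the loss of Runx1 protein. It was also higher in both neighbours, at 150 and 295 CPM in the Ly86 class and 78.8 and 239 in Gstm1/CD63.

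Ly6c2 (ENSMUSG00000022584, chromosome 15, 75108158 to 75111970, minus strand) had the lowest log2 ratio of the labelled knockout to Control in the class with 10 CPM added to each side (-2.05), the scale on which genes are ranked here. It encodes part of the Ly6C surface antigen that marks inflammatory monocytes and myeloid progenitors. The class had 303 CPM in Control and 65.5 in the labelled knockout, a ratio of 0.216 (0.187 to 0.249). In Gstm1/CD63 Ly6c2 had 334 and 46.4 CPM, while the Ly86 class had 415 and 302. The class thus resembled Gstm1/CD63 more than Ly86 at this gene, and that the difference between genotypes varies among the classes was not tested. At 5000 UMIs per cell, 52.9% (46.6 to 59.2) of Control cells and 16.1% (10.2 to 23.7) of knockout cells had a Ly6c2 UMI, against 2.0% and 0.439% of Car1 cells. Unthinned, 217 of 306 and 45 of 137 cells had a UMI, and 5 cells held 40.9% of the knockout UMIs. Ly6c1 is a near-identical copy, so the split of reads between them is uncertain.

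Chdh, which encodes choline dehydrogenase of the mitochondria, followed on that scale (-1.66) and had a lower ratio than Ly6c2 without the added CPM. It had 45.6 and 7.62 CPM (ratio 0.167, 0.107 to 0.251), and UMIs in 186 of 306 and 16 of 137 cells. Serpinf1 (ENSMUSG00000000753, chromosome 11, 75409769 to 75422701, minus strand), which encodes the secreted factor PEDF, had 49.7 and 11.9 CPM. Lgals1, the gene of galectin-1, had 938 and 425 CPM, the highest level in this group, and a ratio of 0.454 (0.428 to 0.48). Chdh was similarly low in both neighbours, with log2 ratios of -1.84 in the Ly86 class and -1.71 in Gstm1/CD63.

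Ctsh, a lysosomal cathepsin, had 30.7 and 7.01 CPM in the class but 65.4 and 66.2 in the Ly86 class. Bcl2, the inhibitor of apoptosis, had 102 and 51.5 CPM (ratio 0.504, 0.425 to 0.596). The granule protease Prss57 had a ratio of 0.455 (0.375 to 0.549). The histone genes Hist1h2ae and Hist1h2ap, whose near-identical copies make their counts uncertain, had 104 and 39 CPM and 244 and 123 CPM. Bex6, Bace1 and the LIM-domain gene Lmo1 completed the 12.

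The promoters of Ly6c2 and Serpinf1 are shown because they are among the lowest genes and hold the RUNX core motif. The 250 bases before the RefSeq start (GRCm38.p6, minus strand, printed 5′ to 3′) were searched for TGTGGT on both strands, and capitals mark each match, with ACCACA as the reverse form. The windows are chr15:75111972-75112221 for Ly6c2 and chr11:75422624-75422873 for Serpinf1.
Ly6c2: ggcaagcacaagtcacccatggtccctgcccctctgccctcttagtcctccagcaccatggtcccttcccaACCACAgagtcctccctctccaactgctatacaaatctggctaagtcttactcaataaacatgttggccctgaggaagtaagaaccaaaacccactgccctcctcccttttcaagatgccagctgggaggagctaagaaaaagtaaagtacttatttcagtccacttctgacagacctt
Serpinf1: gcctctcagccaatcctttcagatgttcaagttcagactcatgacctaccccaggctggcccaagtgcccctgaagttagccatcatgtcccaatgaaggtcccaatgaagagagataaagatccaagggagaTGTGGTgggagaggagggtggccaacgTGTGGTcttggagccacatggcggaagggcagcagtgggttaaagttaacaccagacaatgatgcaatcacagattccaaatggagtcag
Of the 12 lowest genes, 6 had a promoter in the table and 3 of these (Ly6c2, Serpinf1 and Bex6) held the motif. Of the 12 highest, 8 had a promoter and 1, Serpina3g, held it. Over all 27025 genes with a promoter, 3832 (14.2%) held it, and among the 92 named genes with a promoter 15 did. A match is a string of letters and shows no binding.

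Pim1, Apoe and Prdx4 were among the 12 genes furthest above Control in the class of the labelled knockout, and each had UMIs in most cells of it. Pim1 (ENSMUSG00000024014, chromosome 17, 29490753 to 29496112, plus strand), a kinase induced by cytokines through STAT5, had 54.8 and 189 CPM (ratio 3.45, 3.05 to 3.91), with UMIs in 169 of 306 and 123 of 137 cells. Apoe (ENSMUSG00000002985, chromosome 7, 19696109 to 19699188, minus strand) had 201 and 631 CPM (ratio 3.14, 2.94 to 3.35), with UMIs in 186 and 125 cells. Prdx4, a peroxiredoxin of the endoplasmic reticulum, had 48.7 and 156 CPM (ratio 3.21, 2.81 to 3.68), with UMIs in 151 and 113 cells. These 3 genes were about as different without the cells marked as doublets, with log2 ratios of 1.59 for Pim1, 1.75 for Apoe and 1.52 for Prdx4.

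At 5000 UMIs per cell, Pim1 was found in 22.2% (17.3 to 27.8) of Control and 55.4% (46.3 to 64.2) of knockout cells of the class. In Car1 cells the shares were 28.2% and 62.4%, so the higher Pim1 was also seen outside the myeloid classes. Serpina3g, a serpin that inhibits cathepsins in the cytosol and one of a cluster of similar genes, had 26.2 and 106 CPM in the class, a ratio of 4.05 (3.4 to 4.83). Hmga2, a chromatin protein of fetal and early progenitors, had 12.8 and 54.9 CPM, and the inhibitor of differentiation Id1 had 10.6 and 48.5. The chromatin remodeller Chd7 had 11.8 and 50.9 CPM, and Ptgs1, the gene of cyclooxygenase-1, had 8.31 and 41.4. The named genes Pim1, Apoe, Serpina3g, Prdx4, Hmga2, Id1 and Ptgs1 were also higher in both neighbour classes.

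**Figure D3:**
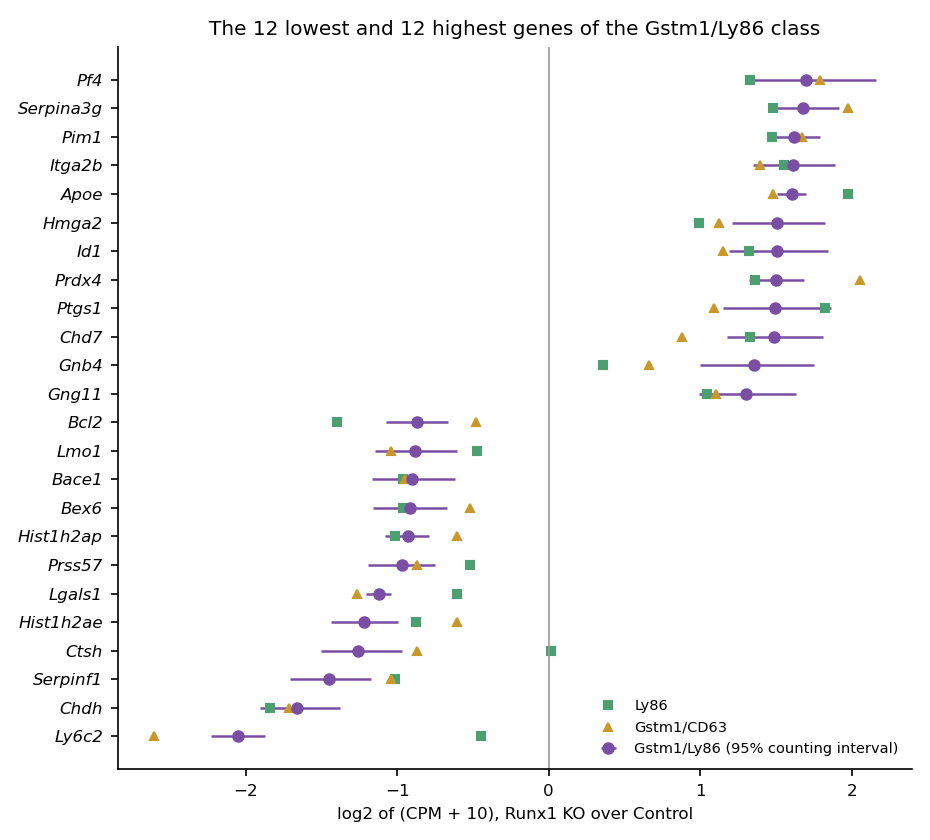
Log2 ratio of the labelled knockout over Control (x axis, CPM plus 10) for the 12 lowest and 12 highest genes of the Gstm1/Ly86 class, with bars for the 95% counting interval in that class and the values of the Ly86 and Gstm1/CD63 classes as squares and triangles. Ly6c2 (-2.05 in the class) is near Gstm1/CD63 and far from Ly86, and Ctsh (30.7 and 7.01 CPM in the class) is near 0 in the Ly86 class.

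The megakaryocyte genes at the top of the ranking were carried largely by the cells marked as doublets. Pf4, the platelet chemokine, had 4.98 and 38.7 CPM, but 74.0% of its knockout UMIs lay in the 12 marked cells, and without marked cells it had 5.12 and 11.4 CPM (log2 ratio 0.50 in place of 1.70). Itga2b, the platelet integrin CD41, had 18 and 75.6 CPM and, without marked cells, 16 and 43.3 CPM (log2 ratio 1.04 in place of 1.61). Nrgn, a calmodulin-binding protein found in platelets, had 27.9 and 68 CPM, and its direction turned without marked cells, to 26.2 and 15.3 CPM (log2 ratio -0.52 in place of 1.04). The marked cells held 49.6% of the knockout UMIs of Itga2b and 80.3% of those of Nrgn, so the size of all 3 differences depended on them, and Itga2b stayed past 1.5-fold without them.

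Over the whole megakaryocyte list of 15 genes, the summed level was 56.5 CPM in Control and 270 in the class of the labelled knockout. It was 1612 CPM in the 12 marked knockout cells and 85.6 CPM in the other 125, against 52.4 CPM in the 296 unmarked Control cells. In the Pf4 class the list summed to 7657 and 9299 CPM. Of the 15 genes 3 were measured in the class and all 3 were higher, where 1.63% of all measured genes were, and 2 in Control and 1 in the labelled knockout had no UMI. Meis1, a homeobox factor of early progenitors, had 22 and 40.2 CPM and lost its difference without marked cells (log2 ratio 0.12 in place of 0.65). Gnb4, Gng11 and Ctla2a were also lower without them, with Gnb4 at a log2 ratio of 0.79 in place of 1.35.

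Other genes were inside the 1.5-fold line with the marked cells and past it without them. Prg2 went from a log2 ratio of -0.40 to -1.85, as 86.0% of its knockout UMIs lay in marked cells and 4.85 CPM were left. Mcpt8 went from 0.39 to 0.74, Cpa3 from 0.57 to 0.85, Ifitm1 from 0.47 to 0.71 and the histidine decarboxylase gene Hdc from 0.47 to 0.60. Smaller shifts took Runx2 (0.57 to 0.64), the granule gene Cst7 (0.56 to 0.60), Nkg7 (-0.56 to -0.61) and the factor Gata2 (-0.53 to -0.63) across the line. Muc13 fell short of it, at 0.54 in place of 0.62.

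**Figure D4:**
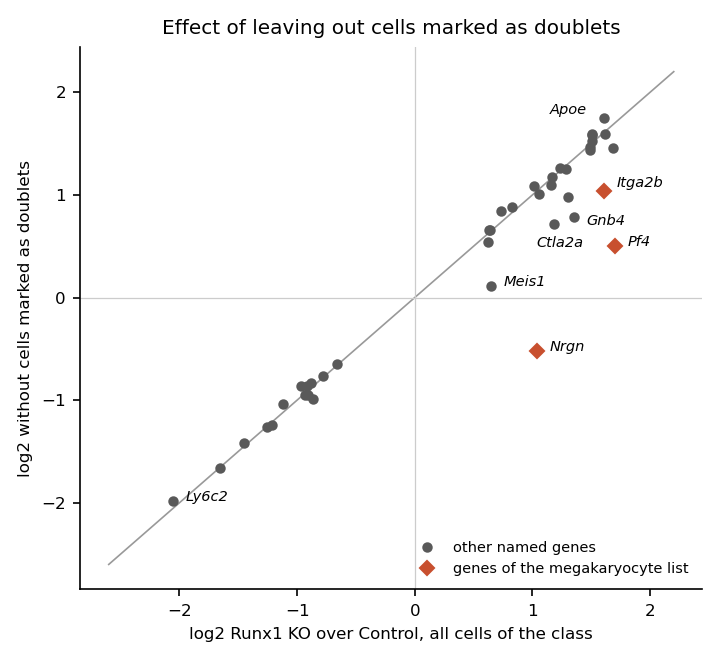
Log2 ratio of the labelled knockout over Control in the Gstm1/Ly86 class for the named genes past 1.5-fold, with all cells (x axis) and without the cells marked as doublets (y axis); the diagonal marks equal values and diamonds the genes of the megakaryocyte list. Most genes lie on the diagonal, while Pf4 falls from 1.70 to 0.50 and Nrgn from 1.04 to -0.52.

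The fate programmes themselves showed little difference between the libraries in the medians of their genes. Their summed levels were somewhat lower in the labelled knockout. The ratio was 0.919 (0.910 to 0.928) for the neutrophil programme and 0.893 (0.863 to 0.923) for the monocyte programme. For this and the lists below, 1.63% of all measured genes were higher and 0.628% lower. Of the 16 neutrophil programme genes 15 were measured, 0 were higher and 1, Prss57, was lower, with a median log2 ratio of -0.01 beside 0.02 for all measured genes. Cebpe had 117 and 118 CPM, the protease gene Ctsg 3149 and 3136, and Prtn3, the gene of proteinase 3, 4160 and 4204. Elane (ratio 0.691, 0.673 to 0.71) and Gstm1 (0.7, 0.619 to 0.79) were lower but inside the 1.5-fold line. Of the 18 monocyte programme genes 11 were measured, and 1 was higher (F13a1, 194 and 329 CPM) and 1 lower (Ly6c2), with a median of -0.01. Ly86 (ratio 0.637, 0.545 to 0.742) and Irf8 (0.759, 0.684 to 0.842) were lower and Csf1r, the receptor for the monocyte growth factor, had 35.3 and 35.0 CPM.

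Granule genes were described by type, and the difference between the types was not tested. Of the 13 primary granule genes 12 were measured, with 0 higher, 1 lower and a median of 0.00, and without the marked cells Cst7 was also higher and Nkg7 also lower. Of the 18 secondary and tertiary granule genes, which belong to later neutrophil stages, 4 were measured and 2 were higher. These were S100a9, a calcium-binding protein of neutrophils, at 9.97 and 38.7 CPM, and Pglyrp1 at 25.2 and 72.5. Both reached the minimum CPM of a measured gene only in the labelled knockout, so their direction followed from that minimum. The count of 2 among 4 therefore cannot show that this type was higher. The summed list of all 18 genes, which does not depend on the minimum, had 355 and 480 CPM (ratio 1.35, 1.27 to 1.44). S100a9 is abundant in neutrophils, and the Ltf class, which holds them, made up 0.724% of Control and 2.8% of knockout cells. Whether free RNA from those cells took part was not tested.

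Of 27 listed myeloid transcription factors 18 were measured, 1 was higher (Runx1) and 0 were lower, with a median of 0.15. Meis1 and Xbp1, 2 factors that are not on that list, were past 1.5-fold. Spi1, the gene of the myeloid master factor PU.1, had 208 and 239 CPM, and Cebpa, which granulocyte-monocyte progenitors need to form, had 124 and 102. The Runx1 relatives Runx2 and Runx3 had 24 and 40.5 CPM and 64.2 and 76.8 CPM. Gfi1, a repressor that opposes Irf8 in neutrophil precursors, had 39.4 and 52.4.

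Receptors for growth factors were led by Csf2rb, the common beta chain for IL-3, IL-5 and GM-CSF, with 40 and 91.1 CPM (ratio 2.28, 1.94 to 2.68) and UMIs in 165 of 306 and 112 of 137 cells. It was the only 1 of 11 measured receptors past 1.5-fold. The G-CSF receptor gene Csf3r had 39.5 and 55.2 CPM, Csf2ra 41.4 and 31.7, and the interferon-gamma receptor gene Ifngr1 185 and 267. In a list of Pim kinases and cytokine feedback genes 3 of 10 were measured, with Pim1 higher, Bcl2 lower and Mcl1, a survival factor, at 86.9 and 98.7.

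Of 30 listed TLR pathway genes, which the series title concerns, 5 were measured in the class, and 0 were past 1.5-fold in either direction, with a median of 0.00. The receptors Tlr2 and Tlr4 had 6.01 and 6.7 CPM and 1.02 and 3.35 CPM, under the minimum. The kinase gene Irak1 had 80.8 and 80.2 CPM, Unc93b1, which carries TLRs to endosomes, 80.9 and 91.4, and the kinase gene Ikbkb 55 and 68.6. In the NF-kB list 5 of 12 genes were measured with 0 past the fold, and Nfkbia, the inhibitor that NF-kB induces, had 50.6 and 33.8.

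Of 20 interferon-stimulated genes 7 were measured and 2 were higher (1.63% of all measured genes were), Ifitm3 at 252 and 535 CPM and Ifi27 at 54.3 and 134 CPM, to which Ifitm1 was added without the marked cells. Ifitm3 encodes a membrane protein that blocks viral entry, and it belongs to a family of similar genes. The inducible Isg15 had 3.45 and 7.92 CPM, and Ifit3 had 0 UMIs in both libraries. Among NADPH oxidase subunits, which make the oxidants of phagocytes, 5 of 6 were measured and Ncf1 was lower at 62.6 and 36.0. Of 18 genes of folding in the endoplasmic reticulum 17 were measured and 2 were higher, beside 1.63% of all measured genes, Prdx4 and the stress factor Xbp1 (101 and 162 CPM), with a median of -0.08.

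Cell cycle genes were measured nearly in full and none was past 1.5-fold: 0 of 20 S phase genes, with a median of -0.14, and 0 of 17 measured of 20 G2/M genes, with a median of -0.05. Of the 20 S phase genes 2 had a log2 ratio above 0, and the summed list had a ratio of 0.894 (0.869 to 0.919). Of the 17 G2/M genes 7 did, and the summed list had a ratio of 0.946 (0.916 to 0.977). Thymidylate synthase (Tyms) had 133 and 89.6 CPM. Ribosome biogenesis genes, a sign of growth, had 0 of 18 measured past the fold and a median of 0.11. Lists for glutathione transferases (5 of 16 measured), MHC class II (2 of 7) and immediate-early and heat-shock genes (6 of 15) also had 0 past 1.5-fold, and of 7 measured cathepsins of 10 only Ctsh was.

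Markers of other cells were low apart from those already described. The basophil and mast cell list summed to 366 and 478 CPM in the class against 55.3 and 108 in the Ly86 class and 352 and 369 in Gstm1/CD63. The erythroid list summed to 93.9 and 78.3 CPM against 4474 and 1876 in the Car1 class, the macrophage list to 5.88 and 4.88 CPM and the T and NK list to 10.1 and 0.609 CPM. The eosinophil list summed to 52.7 and 44.2 CPM, the dendritic cell list to 220 and 227, the lymphoid progenitor list to 69.9 and 64.3 and the stromal and endothelial list to 14.7 and 9.45. Of the 14 multipotent progenitor genes 6 were measured, and Adgrl4 (45.6 and 76.5 CPM) and Meis1 were higher, Meis1 only with the marked cells. These were the only 2 of the 6 with a log2 ratio above 0. The median was -0.07, and Gata2 was lowest at -0.53. Meis1 reached 30 CPM only in the labelled knockout and Gata2 only in Control, so their directions followed from that minimum. The part of these other cells in the differences was not tested beyond leaving out the cells named above.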

How the data were processed

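The authors deposited a matrix of counts (UMIs) with 31053 genes in 14795 cells. The submitters' processing notes name Cell Ranger and mm10, without versions or settings. Their deposited annotation gives, for each cell, counts of UMIs and genes, the mitochondrial fraction, a size factor (a ratio), the library and the class. How classes were assigned was not stated in the sources used here. The matrix sums equalled the annotated UMIs in all 14795 cells. Per the file headers the libraries are called WT and KO, and WT was taken as Control. No cell had fewer than 1000 detected genes.

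Sums of UMIs per class and library were scaled to CPM. Log2 ratios used a pseudocount of 10 CPM, and measured genes had at least 30 CPM in the higher group and 100 UMIs over both. Ratios carry exact Poisson and shares exact Clopper-Pearson 95% intervals. Shares at 5000 UMIs are the expectation over all ways of thinning each cell, used in place of a single random draw, which varied too much for small classes. Doublets were marked per library with Scrublet in scanpy 1.11.5. The calculation was tested on simulated data. Genes were located with GENCODE M21 (31011 of 31053 identifiers matched), and promoters came from RefSeq.

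Named genes are Runx1, the 5 class markers, the 12 highest and 12 lowest ratios of the labelled knockout to Control, the 8 highest and 8 lowest against each neighbour in both libraries, the 6 furthest above both neighbours, and up to 4 members of each of 30 lists. Predicted, clone-named, mitochondrial and Y-linked genes and a few X-linked genes, among them Xist and Tsix, were left out of the ranking. The counts include a named gene that is not reported here. Any other gene was picked with its values known. The class, lists and markers were chosen with earlier results of these data known. Alternatives varied the pseudocount, minimum, scaling, cell weight and cells included.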

Additional observations from a re-analysis of the deposited data

Results flagged for a closer look

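Mcpt8, a basophil protease gene, had opposite directions in neighbouring classes. Its log2 ratio of the labelled knockout over Control was 0.39 in the Gstm1/Ly86 class (65.4 and 88.7 CPM) and -1.56 in Gstm1/CD63 (44.6 and 8.52 CPM). The difference between the classes was not tested. In the Gstm1/Ly86 class 5 cells held 62.3% of the Mcpt8 UMIs in Control and 93.5% in the labelled knockout. Without the 7 Control and 6 knockout cells with at least 10 UMIs of Mcpt8, Prg2 or Pf4, a choice made after seeing the data, the log2 ratio in the class was -0.95. Without the cells marked as doublets it moved the other way, to 0.74 (36.7 and 68.3 CPM).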

How the results depend on the processing

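No paired analysis was possible because each genotype had 1 library. The counts of genes past 1.5-fold between the libraries (70 higher and 27 lower) moved most with the settings. Higher genes numbered 29 with a pseudocount of 50 CPM, 129 with a minimum of 10 CPM and 20 UMIs, 163 with no minimum, 109 with totals without mitochondrial, ribosomal protein and haemoglobin genes, and 108 with each cell weighted alike. Lower genes numbered 41 with a pseudocount of 1 CPM, 12 with 50 CPM, 45 with the lower minimum, 55 with none, 41 with the reduced totals, 42 with equal cell weights and 49 after thinning to 5000 UMIs. Against the Ly86 class in the labelled knockout, higher genes numbered 77 with a pseudocount of 1 CPM and 88 with equal weights, and lower genes 128 with equal weights. The median of the monocyte programme was -0.20 with the reduced totals. The class share was 12.3% and 7.26% over the 5 myeloid classes and 2.24% of knockout cells without the Pf4 class. Of 40 named genes past 1.5-fold, 39 kept their direction without cells marked as doublets and 36 stayed past the fold. Nrgn reversed to -0.52, and Pf4 (0.50), Meis1 (0.12) and Muc13 (0.54) fell short. With a pseudocount of 50 CPM 27 of the 40 stayed past the fold, and all 40 kept their direction under the other 10 settings. The causes of these shifts were not tested. The 137 knockout cells limit what can be seen of genes with few UMIs.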
